A study of Bos taurus with 6 samples.

Results

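The genes described here encode the nuclear pore complex and the soluble carriers that move cargo through it: nucleoporins, importins, exportins, the GTPase RAN and its binding protein RANBP1. They were taken by symbol from the table of bovine oocyte mRNA levels, as symbols made of NUP, KPNA, KPNB, IPO, XPO or TNPO and a digit, or the names RAN, RANBP1, RANBP2, TPR, POM121, NDC1, AAAS, SEH1L, RAE1 and CSE1L. The rule found 58 of 20707 rows, which carry 48 symbols. Of these rows, 26 belong to the pore, 23 to transport receptors (importins and exportins) and 9 to RAN and RANBP1. Averages reached 1 RPKM or more in 49 rows, 23 of the pore, 20 of receptors and 6 of RAN and RANBP1, and these were tested. RPKM divides the reads of a gene by its length and by the mapped reads of the library, to put different genes on a common scale. Whether that scale holds between genes of unlike length was not tested, so comparisons between genes below are descriptions. RANBP2, NUP62, NDC1, POM121 and TNPO1 were not analysed here.

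The study profiled polyadenylated RNA of single Bos taurus oocytes at 2 stages. The MII oocytes, after 24 hours of maturation in vitro, stood at metaphase of the second meiotic division (libraries MII14c, MII15 and MII15c). GV oocytes, at the germinal vesicle stage of prophase arrest, were collected when follicles of abattoir ovaries were aspirated (libraries GV14, GV14c and GV15). No genotype, animal or further treatment is labelled, the stage label was used although another label calls every sample matured in vitro, and GV14c and MII15c match no sample title, so they were used by stage alone. Whether they come from separate animals is not stated. A p-value here compares the stage difference with the spread among these libraries only. The variance of each gene is drawn towards that of genes at a similar level.

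The nuclear pore is a ring-shaped channel in the nuclear envelope, built from scaffold rings, a membrane ring, a channel lined with phenylalanine-glycine repeats, cytoplasmic filaments and a nuclear basket. Importins carry cargo inwards and release it in the nucleus, when RAN loaded with GTP (RAN-GTP) binds them. Exportins bind cargo together with RAN-GTP and release it in the cytoplasm. At germinal vesicle breakdown the envelope and its pores come apart, and in the metaphase oocyte RAN-GTP near chromosomes frees spindle assembly factors from importins. Pores have to be built again when pronuclei form after fertilization, largely from maternal stores. cDNA was primed on poly(A) tails, so more transcripts and better captured tails cannot be told apart in any level below.

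Depth recovered from the low values was 21.27 to 32.55 M reads per MII library and 20.23 to 29.95 M reads per GV library. Libraries held 40 to 48 member rows at 1 RPKM or more in MII and 44 to 49 in GV. The 12 oocyte markers summed to 3314 to 4208 RPKM in MII and 7495 to 10611 RPKM in GV, with 9 of them lower in MII. Cumulus and granulosa cell markers, 17 in number, summed to 109.6 to 112.3 RPKM in MII and 94.88 to 175.8 RPKM in GV, with 9 of them under 1 RPKM and PTX3, LHCGR and NR5A1 at 0 in every library. The sum was mostly HAS2, at 59.54 ± 4.84 RPKM in MII and 16.27 ± 4.06 RPKM in GV, and STAR, at 35.42 ± 5.46 RPKM in MII and 101.2 ± 34.2 RPKM in GV (SD, n = 3). Blood cell markers summed to at most 0.229 RPKM in MII and 0.588 RPKM in GV. The part of somatic cell RNA in the results was not tested. Among the 4 libraries that match a title, adapters were diluted 1 in 50 for MII14c and MII15, against 1 in 30 for GV14 and 1 in 10 for GV15, and this dilution cannot be told apart from stage.

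Many pore mRNAs were higher in MII than in GV, while transport receptor mRNAs rose at a share near that of all tested genes. The difference between the classes was not tested. Over all 49 tested rows, 13 rose and 6 fell (limma adjusted p under 0.05 over 8671 genes), where 40.3% of all tested genes passed in either direction. Of the 23 tested pore rows, 11 rose, 3 fell and 9 did not pass, where 13.4% of all tested genes rose and 26.9% fell. The 11 rises make up 47.8% of the tested pore rows and the 3 falls 13%. Of the 20 tested receptor rows, 2 rose, 3 fell and 15 did not pass, or 10% and 15%. At a mean of 5 RPKM or more, 11 of 19 pore rows and 3 of 8 receptor rows rose, beside 1110 of 5426 genes. In that fit 2 pore rows and 1 receptor row fell, beside 1558 genes. No receptor rise was called without GV15, MII14c or MII15c, 1 was without GV14 or GV14c, and 5 receptors fell without GV14c. None of the 6 tested RAN and RANBP1 rows passed, nor had an unadjusted p under 0.05. The median log2 change, MII minus GV, was 0.42 for pore rows, -0.03 for receptor rows and -0.15 for RAN and RANBP1 rows, beside -0.165 for all tested genes. Relative to all genes the medians were 0.58 for the pore and 0.14 for receptors, and 0.63 to 0.69 and 0.07 to 0.17 under median-ratio, quantile and TPM scaling, which moved the median of all genes to 0.05, 0.22 and -0.07. Receptor falls numbered 3 as deposited and under each of those scalings, beside 2, 3, 4 and 3 rises. They made up 60%, 50%, 42.9% and 50% of receptor calls, beside 66.7%, 55%, 45.4% and 59.9% of all calls. With so few receptor calls, 1 call more or less moves these shares widely, so they do not show that receptors follow all genes. Falls made up 20% to 21.4% of pore calls.

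Stages did not overlap in 15 of the 49 tested rows with MII above GV (19.8% of all tested genes) and in 8 with MII below GV (32.1%), where 51.9% of all tested genes had no overlap in either direction. For the pore these were 12 above and 3 below, and for receptors 3 above and 5 below. The count of pore rises depends on the libraries kept, as does the count over all tested genes. It was 7 without GV15, 7 without MII15c and 4 without both libraries that match no title. Rises over all tested genes went from 1162 to 761, 585 and 352 in these fits. The 3 pore falls remained 3 in each, while falls over all tested genes went from 2329 to 2155, 1719 and 1280. The pore median was 0.72 without MII15 and 0.37 without GV15. With 1 row per symbol, 10 pore symbols rose and 3 fell.

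**Figure D1:**
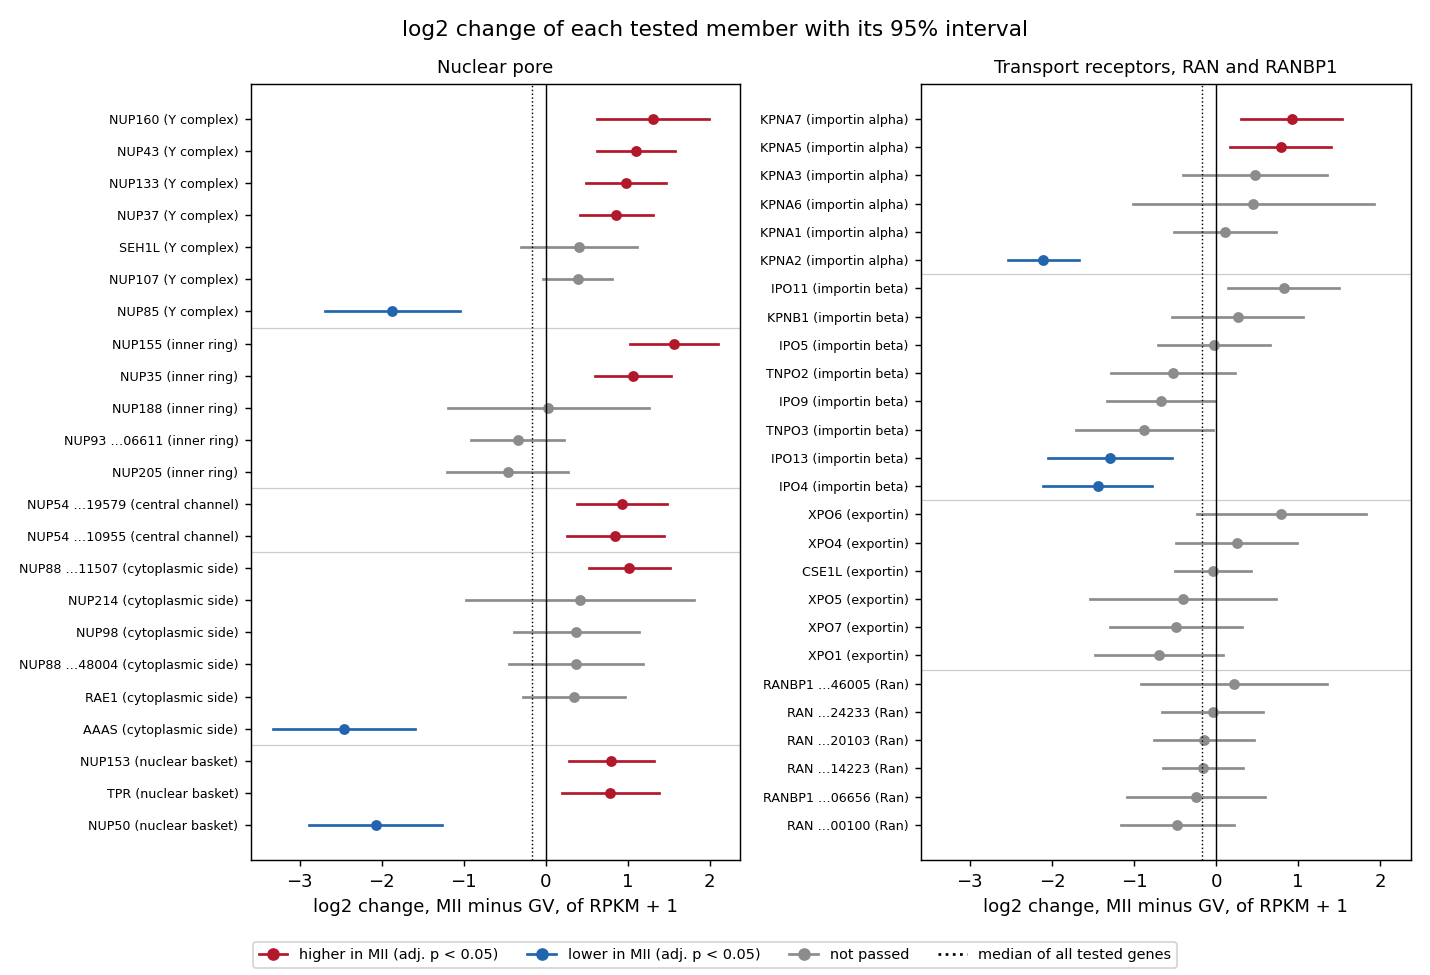
Points are the log2 change of RPKM + 1 (MII minus GV, horizontal axis) of each of the 49 tested rows, bars the 95% interval of the limma fit, red and blue rows those that passed as higher or lower in MII. The dotted line is the median of all tested genes, -0.165; most pore rows lie right of it, whereas AAAS at -2.46, KPNA2 at -2.10, NUP50 at -2.07 and NUP85 at -1.87 lie farthest left.

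The Y complex, the outer scaffold ring of the pore, had 4 of its 7 tested rows higher in MII and 1 lower. Over all tested genes 13.4% rose and 26.9% fell. NUP37, a small peripheral subunit, measured 292.4, 399.6 and 320.6 RPKM in MII14c, MII15 and MII15c, against 190, 172.3 and 190 RPKM in GV14, GV14c and GV15. Every MII library lay above every GV library (log2 change 0.86 ± 0.20, SE; limma adjusted p = 0.00844). NUP43, another peripheral subunit, measured 49.03, 42.58 and 49.55 RPKM in MII and 21.44, 22.57 and 20 RPKM in GV. It kept its rise under all 18 alternatives (log2 change 1.10 ± 0.21; adjusted p = 0.00349). NUP133, at the stem of the Y, measured 55.55, 68.5 and 58.75 RPKM in MII and 34.55, 29.42 and 27.29 RPKM in GV (log2 change 0.98 ± 0.21; adjusted p = 0.00653). NUP160, in the arm of the Y that holds NUP37, measured 26.03, 42.4 and 29.07 RPKM in MII and 15.46, 8.483 and 14 RPKM in GV (log2 change 1.30 ± 0.30; adjusted p = 0.00878). For both, the stages were fully apart. NUP37, NUP133 and NUP160 missed the threshold in 1 alternative each, the fit without GV14c and MII15c (adjusted p = 0.0787, 0.0625 and 0.0689; over the alternatives 0.000447 to 0.0787, 0.000535 to 0.0625 and 0.000225 to 0.0689).

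NUP85, in the arm that holds SEH1L, went the other way. It measured 8.047, 6.235 and 8.032 RPKM in MII and 26.99, 51.52 and 18.62 RPKM in GV, with the highest value in GV14c. The 2 stages did not overlap, and the fall held under all 18 alternatives (log2 change -1.87 ± 0.36, SE; limma adjusted p = 0.00378). NUP107, the central stem subunit, measured 128.3, 115.9 and 123.8 RPKM in MII and 91.71, 99.17 and 89.61 RPKM in GV. Its stages did not overlap either, but it missed the threshold (log2 change 0.39 ± 0.19; adjusted p = 0.126), and it passed with median-ratio scaling, quantile scaling and library weights (0.0446, 0.0246 and 0.0146; 0.0146 to 0.292 over the alternatives). SEH1L, which the pore shares with a lysosomal signalling complex, measured 172.1, 306.8 and 239.4 RPKM in MII and 260.6, 124.6 and 167.7 RPKM in GV. Those ranges overlap widely (log2 change 0.40; adjusted p = 0.335). With the letter c of the library names as a term, SEH1L passed as higher in MII (log2 change 0.63; adjusted p = 0.0378; 0.0378 to 0.825 over the alternatives). Levels within the complex spread from 7.438 ± 1.04 RPKM for NUP85 to 337.5 ± 55.6 RPKM for NUP37 in MII, and from 12.65 ± 3.68 RPKM for NUP160 to 184.3 ± 69.5 RPKM for SEH1L in GV (SD, n = 3).

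The inner ring, which anchors the pore in the membrane and carries the central channel, had 2 of 5 tested rows higher and none lower. Of all tested genes 13.4% rose and 26.9% fell. NUP35, a membrane-binding subunit, was the most abundant member of the pore. It measured 885.5, 1184 and 942.8 RPKM in MII and 424.8, 474.7 and 535.4 RPKM in GV, which ranks 31 of all rows by the MII mean and 92 by the GV mean. The stages lay well apart (log2 change 1.06 ± 0.21, SE; limma adjusted p = 0.00369). NUP155, a scaffold subunit, had the largest rise of all member rows. It measured 93.02, 127.2 and 89.08 RPKM in MII and 36.27, 27.44 and 38.87 RPKM in GV (log2 change 1.56 ± 0.24; adjusted p = 0.00117). The lowest MII library was above the highest GV library, and both genes kept the call under all 18 alternatives.

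The other inner ring scaffolds did not pass. NUP93, the hub of the ring, measured 24.89, 32.45 and 29.6 RPKM in MII and 37.93, 45.89 and 28.55 RPKM in GV (log2 change -0.34, 95% interval -0.91 to 0.22; adjusted p = 0.307). A second row under the same symbol was at 0 in every library. NUP205 and NUP188, the large paralogous scaffolds, were low, at 6.56 ± 1.96 and 2.376 ± 2.11 RPKM in MII and 9.395 ± 2.60 and 2.125 ± 1.37 RPKM in GV (SD, n = 3). NUP188 was highest in MII14c at 4.677 RPKM and lowest in MII15 at 0.52 RPKM, so the spread within a stage exceeded any difference between stages.

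The central channel is represented by NUP54, a phenylalanine-glycine nucleoporin, in 2 rows. The row on chromosome 6, with 16 coding exons, measured 105, 185.8 and 191.8 RPKM in MII and 86.07, 92.38 and 79.27 RPKM in GV. The row on chromosome 29, with 5 coding exons and a similar coding length (1521 against 1533 nt), measured 42.33, 50.48 and 58.75 RPKM in MII and 24.59, 31.86 and 21.82 RPKM in GV. Its coding exons run from 50654119 to 50655720, so the gaps between them are short. Whether this row is a copy made from spliced NUP54 mRNA was not tested. Reads may be shared between the copies, so they are not independent results. Both rose by log2 changes of 0.85 ± 0.26 on chromosome 6 and 0.93 ± 0.24 on chromosome 29 (SE; adjusted p = 0.0292 and 0.0143 in limma). For the chromosome 6 row the call was lost under 8 of 18 alternatives, including without GV14, GV15, MII15 or MII15c (0.076, 0.0841, 0.0697 and 0.122, within 0.000504 to 0.162 over all that were run) and with the number 14 or 15 as a replicate block (log2 change 0.74; adjusted p = 0.0553). For the chromosome 29 row it was lost under 4, including without GV14, GV15 or MII15c (0.0507, 0.0553 and 0.0709; 0.000143 to 0.0709).

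On the cytoplasmic side, where mRNA export ends, 1 of 6 tested rows rose and 1 fell. These are 16.7% each, beside 13.4% and 26.9% of all tested genes. NUP88, which holds the export platform of the filaments, measured 485.8, 418.6 and 608.6 RPKM in MII and 244.5, 282.4 and 213.8 RPKM in GV. The 2 stages were fully separated and the rise held under all 18 alternatives (log2 change 1.02 ± 0.22, SE; limma adjusted p = 0.00575). A second NUP88 row lay at 2.054 ± 0.624 RPKM in MII and 1.455 ± 0.978 RPKM in GV. AAAS, which encodes aladin, had the steepest fall of all member rows. It measured 6.498, 6.319 and 6.591 RPKM in MII and 33.1, 76.24 and 25.11 RPKM in GV (log2 change -2.46 ± 0.38; adjusted p = 0.00132). The 3 MII values lay close together far below GV, and the fall held under all 18 alternatives.

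RAE1, an mRNA export factor that pairs with NUP98, measured 254.3, 158.4 and 200.8 RPKM in MII and 167.3, 207.1 and 113.9 RPKM in GV, with overlapping ranges (adjusted p = 0.352 in limma). NUP98, whose precursor is also the source of a Y complex scaffold subunit, measured 11.88, 5.33 and 10.05 RPKM in MII and 6.252, 7.584 and 5.708 RPKM in GV, again with overlap (adjusted p = 0.414). NUP214, the filament partner of NUP88, measured 8.482, 0.588 and 4.549 RPKM in MII and 2.303, 3.844 and 1.2 RPKM in GV, with wide overlap (adjusted p = 0.623). Of the membrane ring, NUP210 was at 0 in every MII library and reached 0.019 RPKM in GV14c alone, and NUP210L, its testis-type paralog, ranged from 0.113 to 1.066 RPKM in MII and from 0.173 to 0.363 RPKM in GV. Neither was tested.

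All 3 nuclear basket genes passed, in both directions, where 40.3% of all tested genes passed. TPR, the filament protein of the basket, measured 83.11, 58.68 and 82.94 RPKM in MII and 55.56, 32.88 and 41.6 RPKM in GV (log2 change 0.79 ± 0.26, SE; limma adjusted p = 0.0379). NUP153, which ties the basket to the ring, measured 72.64, 46.55 and 58.12 RPKM in MII and 34.36, 32.5 and 32.25 RPKM in GV (log2 change 0.80 ± 0.23; adjusted p = 0.0224). Neither gene overlapped between stages, although the lowest MII library of TPR was close to GV14. NUP50, a mobile basket protein that helps importin alpha release its cargo, measured 1.863, 0.779 and 0.374 RPKM in MII and 6.203, 6.48 and 8.673 RPKM in GV. Its fall (log2 change -2.07 ± 0.36; adjusted p = 0.00217) rests on at least 17 to 81 reads per MII library, counted from the coding length, and at least 244 to 260 per GV library, and it held under all 17 alternatives in which the gene was tested. TPR lost its call under 7 of 18 alternatives, including without GV14c, GV15, MII14c or MII15c (0.106, 0.0922, 0.103 and 0.133; 0.00346 to 0.28 over the alternatives). NUP153 lost it under 5, without GV14, GV15, MII14c or MII15c (0.0575, 0.0649, 0.0725 and 0.075; 0.00095 to 0.133) and without the pair that matches no title.

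**Figure D2:**
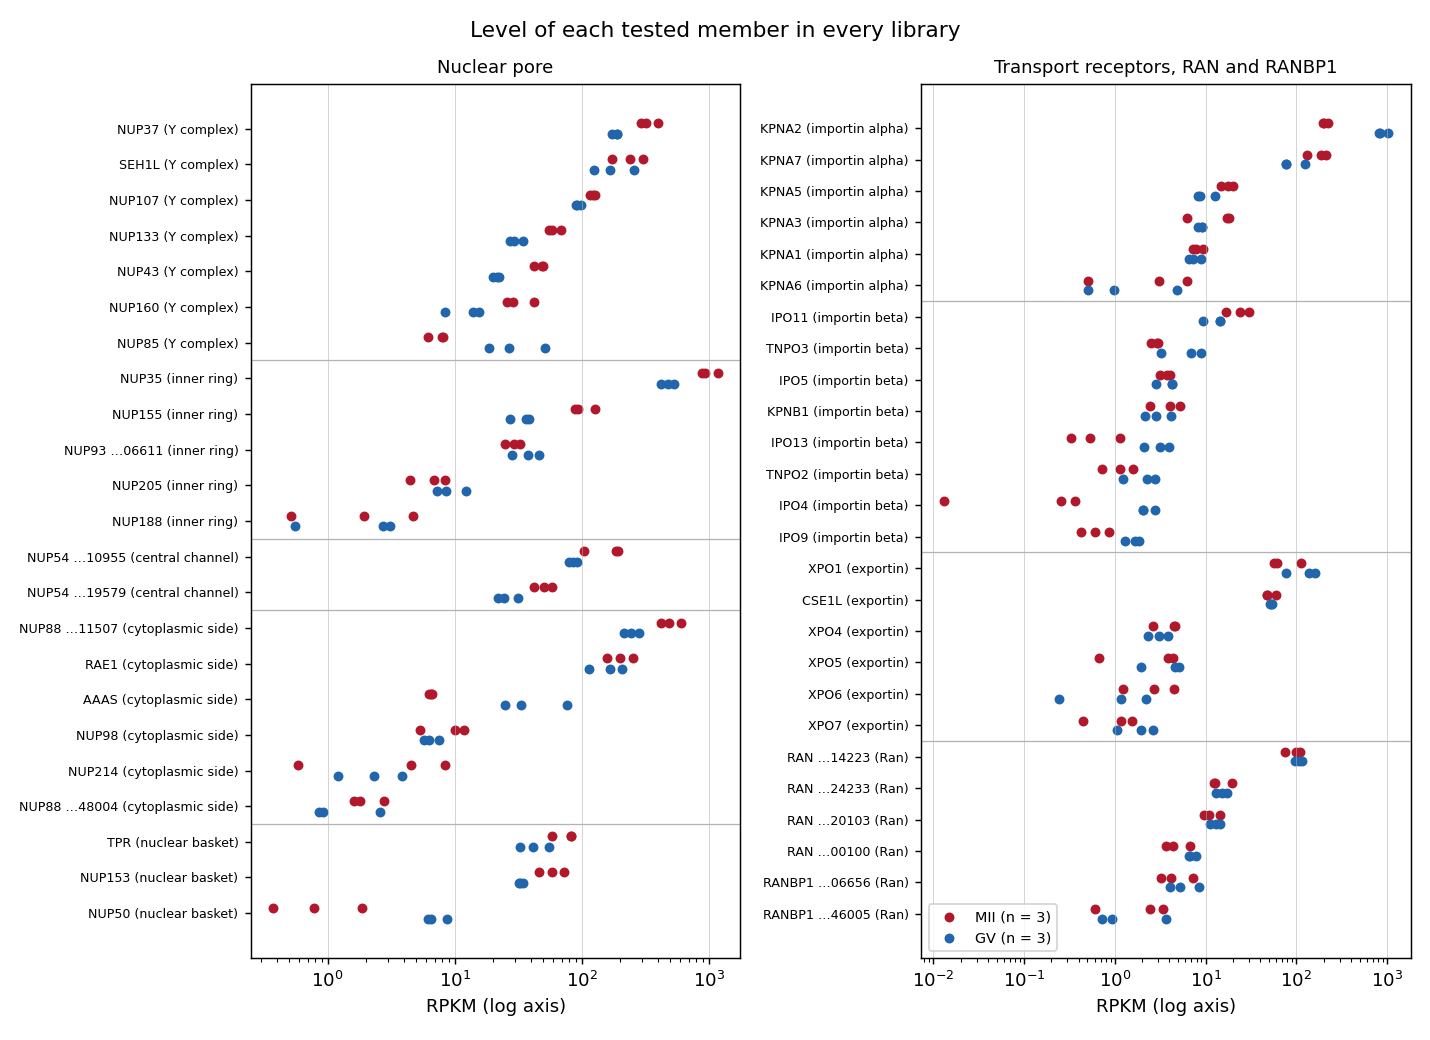
Each point is the RPKM (log horizontal axis) of 1 tested row in 1 library, with the 3 MII libraries in red above the 3 GV libraries in blue, and rows grouped by role. NUP35 reaches 1184 RPKM in MII15, and KPNA2 is the receptor row of highest level in GV, at up to 1031 RPKM.

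Importin alpha proteins bind classical nuclear localization signals and hand cargo to importin beta, and their mRNA make-up differed between the stages. KPNA2, the family member of proliferating cells, measured 200.9, 221.1 and 195.6 RPKM in MII and 818.6, 827.6 and 1031 RPKM in GV. This gap was far wider than the spread within either stage (log2 change -2.10 ± 0.19, SE; limma adjusted p = 8.19e-05), and it was the smallest p of any member row. KPNA2 ranked 278 among all rows by the MII mean and 41 by the GV mean, and the fall held under all 18 alternatives. Its gene model runs 20830 nt past the coding end, and whether reads of neighbouring genes enter it was not tested. KPNA7, the importin alpha of oocytes and early embryos in cattle, measured 210.1, 130.4 and 186.2 RPKM in MII and 77.08, 125.6 and 76.39 RPKM in GV. The lowest MII library was just above GV14c, the highest of GV (log2 change 0.92 ± 0.27; adjusted p = 0.0251). The call was lost under 6 of 18 alternatives, including without GV14, GV15, MII14c or MII15c (0.0889, 0.0835, 0.0792 and 0.0904; 0.000112 to 0.0904 over the alternatives).

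As a share of the summed importin alpha RPKM, KPNA7 made up 45.3%, 34% and 43.7% in MII14c, MII15 and MII15c, against 8.3%, 12.8% and 6.74% in GV14, GV14c and GV15. KPNA2 made up 43.3%, 57.7% and 45.9% in MII and 88.2%, 84.3% and 91% in GV. The ratio of KPNA2 to KPNA7 was 1.23 ± 0.403 in MII and 10.2 ± 3.47 in GV (SD, n = 3). Scaling a whole library by 1 factor cannot change it, though quantile normalization can. The 7 genes together summed to 424.5 ± 40.5 RPKM in MII and 1015 ± 106 RPKM in GV.

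The other importin alpha genes were low. KPNA5 measured 19.94, 17.68 and 14.94 RPKM in MII and 12.58, 8.588 and 8.33 RPKM in GV. It passed narrowly (log2 change 0.79 ± 0.27, SE; limma adjusted p = 0.0447), although the stages did not overlap. The call was lost under 8 of 18 alternatives, including without GV14c, GV15, MII14c, MII15 or MII15c (0.106, 0.136, 0.117, 0.0646 and 0.0792; 0.0109 to 0.162 over the alternatives). KPNA3 measured 17.15, 6.18 and 17.96 RPKM in MII and 9.048, 8.175 and 9.083 RPKM in GV, with MII15 below every GV library. It did not pass (adjusted p = 0.366), and without MII15 it did (0.0187; 0.00573 to 0.827 over the alternatives). KPNA1 measured 9.444, 7.279 and 7.795 RPKM in MII and 8.835, 7.209 and 6.574 RPKM in GV (log2 change 0.10, 95% interval -0.52 to 0.73). KPNA6 measured 6.28, 0.511 and 3.084 RPKM in MII and 0.509, 4.836 and 0.986 RPKM in GV, so in each stage the libraries whose name ends in c were the high ones. KPNA4 stayed under 1 RPKM on average and was not tested, at 0.248, 0 and 0.778 RPKM in MII and 1.988, 0.02 and 0.681 RPKM in GV.

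**Figure D3:**
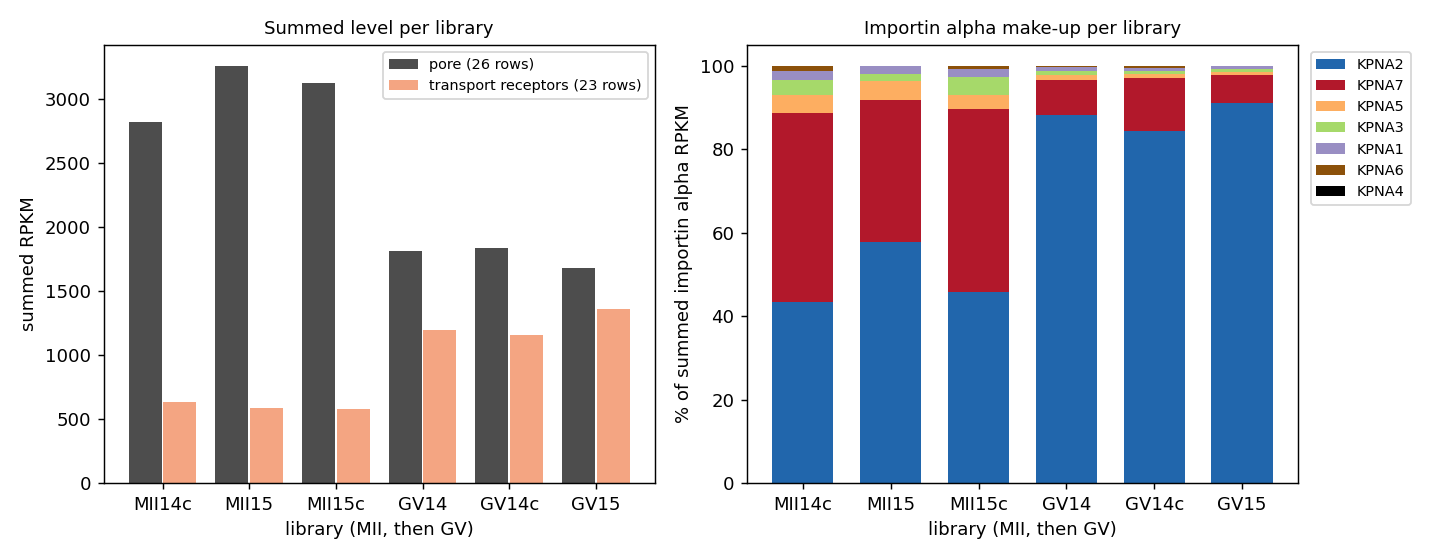
Left, bars give the summed RPKM of the 26 pore rows and of the 23 receptor rows in each library; right, stacked bars give the percent of summed importin alpha RPKM held by each of its 7 genes. MII libraries stand left of GV libraries; KPNA7 holds 34% to 45.3% in MII and 6.74% to 12.8% in GV.

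The importin beta family, which docks at the pore and carries cargo through it, was low in both stages. None of its 8 tested rows rose and 2, or 25%, fell, where 13.4% of all tested genes rose and 26.9% fell. IPO4, a histone importin, measured 0.367, 0.013 and 0.254 RPKM in MII and 2.756, 2.046 and 2.06 RPKM in GV. The groups did not overlap (log2 change -1.44 ± 0.29, SE; limma adjusted p = 0.00469), and the fall held under all 17 alternatives in which it was tested, on at least 1 to 37 reads per MII library and 135 to 268 per GV library. IPO13, which carries cargo in both directions, measured 1.132, 0.331 and 0.537 RPKM in MII and 3.165, 3.928 and 2.091 RPKM in GV (log2 change -1.29 ± 0.34; adjusted p = 0.0145). Again no MII library reached the lowest GV library, yet the call was lost under 3 of 17 alternatives, among them without GV14 or MII15c (0.0513 and 0.0604; 0.000459 to 0.139 over the alternatives).

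KPNB1, the importin beta that partners importin alpha, measured 5.173, 2.451 and 4.025 RPKM in MII and 2.818, 4.17 and 2.127 RPKM in GV, a wide overlap (log2 change 0.27, 95% interval -0.53 to 1.06). It was thus below KPNA2 and KPNA7 in every library. IPO11, the most abundant of the family, measured 29.94, 16.69 and 24.14 RPKM in MII and 14.47, 14.28 and 9.487 RPKM in GV. The 2 stages did not overlap, and the test was narrowly missed (log2 change 0.82 ± 0.30, SE; limma adjusted p = 0.0528). It was passed under 7 of 18 alternatives, median-ratio, quantile and TPM scaling among them and also without MII15 (0.00705, 0.00759, 0.0392 and 0.0191; 0.00301 to 0.179 over the alternatives). TNPO3, which imports splicing factors of the SR family, measured 2.891, 2.521 and 2.984 RPKM in MII and 8.897, 3.253 and 7.004 RPKM in GV (adjusted p = 0.0882, and 0.0234 without GV14c, its lowest GV library; 0.00252 to 0.397 over the alternatives). IPO9, an importer of core histones, measured 0.872, 0.606 and 0.429 RPKM in MII and 1.652, 1.847 and 1.289 RPKM in GV (adjusted p = 0.0965). For both, MII lay below GV without overlap. IPO5 and TNPO2 overlapped between stages (adjusted p = 0.965 and 0.243), and IPO7 and IPO8 were too low to be tested.

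None of the 6 exportin rows passed limma's test, where 40.3% of all tested genes passed. None had an unadjusted p under 0.05, and that share was not counted over all genes. XPO1, the exporter of proteins with leucine-rich signals, measured 62.01, 113.1 and 57.35 RPKM in MII and 162.1, 76.34 and 139.7 RPKM in GV. The ranges overlapped, with MII15 high and GV14c low for their stages (log2 change -0.69, 95% interval -1.48 to 0.09; limma adjusted p = 0.143). XPO1 passed without GV14c, without MII15 and with library weights (0.0382, 0.0394 and 0.000349; 0.000349 to 0.474 over the alternatives). CSE1L, which returns importin alpha to the cytoplasm, measured 47.74, 59.96 and 47.1 RPKM in MII and 52.86, 51.43 and 53.56 RPKM in GV. The 95% interval of its log2 change ran from -0.50 to 0.43. XPO4, XPO5, XPO6 and XPO7 averaged between 1.056 and 3.911 RPKM in MII and between 1.207 and 3.87 RPKM in GV, with overlap in each. XPO6 (log2 change 0.79; limma adjusted p = 0.196) passed as higher with quantile normalization, library weights and the number 14 or 15 as a replicate block (0.0137, 0.0149 and 0.0361; 0.0137 to 0.507 over the alternatives). XPO5, the exporter of microRNA precursors, measured 3.812, 0.672 and 4.332 RPKM in MII and 5.079, 4.605 and 1.927 RPKM in GV.

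RAN, the GTPase that gives transport its direction, is carried by 7 rows, of which 4 were tested and none passed. Over all tested genes 40.3% passed. The row of highest level, with 2 coding exons on chromosome X, measured 100.1, 110.9 and 75.45 RPKM in MII and 95.75, 114.7 and 106 RPKM in GV. The stages overlapped (log2 change -0.16, 95% interval -0.65 to 0.33; limma adjusted p = 0.599). The other tested RAN rows averaged 4.929, 11.68 and 14.95 RPKM in MII and 7.054, 12.92 and 15.17 RPKM in GV, and 2 rows were at 0 throughout. Reads may be shared among these copies, so a level of RAN as a gene is uncertain. RANBP1, which promotes GTP hydrolysis by RAN in the cytoplasm, has 2 rows on chromosome 17, at 4.892 ± 2.11 and 2.154 ± 1.42 RPKM in MII and 5.917 ± 2.25 and 1.779 ± 1.66 RPKM in GV (SD, n = 3; limma adjusted p = 0.639 and 0.755).

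Libraries whose name ends in c differed from the others in some members. With that letter as a term beside stage, 4 of the 49 tested rows passed for the letter, or 8.16%, where 7.29% of all tested genes did; 3 were higher with c (5.73% of all tested genes) and 1 lower (1.56%). KPNA6, RANBP1 in 1 of its rows and NUP214 were higher with c (log2 differences 1.80, 1.32 and 1.52; limma adjusted p = 0.014, 0.0289 and 0.0416), and XPO1 was lower (-0.94; adjusted p = 0.0195). What the letter stands for is not labelled.

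Summed over rows, the pore reached 2822, 3265 and 3125 RPKM in MII and 1818, 1842 and 1682 RPKM in GV. The receptors reached 635.2, 589.5 and 580.2 RPKM in MII and 1197, 1158 and 1363 RPKM in GV. Single genes weigh heavily in both sums: NUP35 held 30.2% to 36.3% of the pore sum in MII and 23.4% to 31.8% in GV. Without NUP35 the pore sum was 2066 ± 124 RPKM in MII and 1302 ± 135 RPKM in GV, still fully apart. Without KPNA2 the receptor sum was 395.7 ± 34.3 RPKM in MII and 346.8 ± 27.4 RPKM in GV (SD, n = 3), and the libraries of the 2 stages overlapped. Across the 22 tested pore rows with an annotated coding length, level went down with length (Spearman's rho -0.48 in MII and -0.58 in GV), as it did across the 20 receptor rows (-0.46 in MII and -0.43 in GV), where 8469 tested genes gave -0.03 in MII and -0.23 in GV. These are descriptions across genes that share libraries and the length in the RPKM denominator.

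The authors' annotation, whose genome build is not given in the sources used here, places the members on many chromosomes. Coding regions of NUP155 lie on chromosome 20 with 35 coding exons, of NUP35 on chromosome 2 with 8, of AAAS on chromosome 5 with 16, of KPNA2 on chromosome 19 with 10 and of KPNA7 on chromosome 25 with 10. KPNA7 is coded from 37668826 to 37691594 on the plus strand, and KPNA2 from 49569623 to 49577476 on the minus strand. The members that fell share a short stretch between coding end and gene model end, KPNA2 excepted. This distance was 28 nt for AAAS, 71 nt for IPO13, 89 nt for NUP85, 197 nt for IPO4 and 222 nt for NUP50, with a median of 143 nt over the 6 falls when KPNA2 is included, against 725 nt over the 13 rises and 1022 nt over 27 rows that did not pass. Rises were found with short distances as well, such as TPR with 141 nt and NUP37 with 200 nt.

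Over all 8469 tested genes with such a distance, 35.2% of those at or under the median of 896 nt fell and 8.99% rose, and 18.5% of those above it fell and 18.2% rose. Among pore rows, 7 of 15 at or under that distance rose and 3 fell, and 4 of 7 above it rose and none fell, with Spearman's rho of distance and log2 change at 0.43 over 22 pore rows, 0.08 over 20 receptor rows, 0.12 over all 46 member rows and 0.23 over the 8469 genes. The distance can contain introns and, where a model runs into a neighbour, other genes. The split was chosen after the values were seen, and nothing particular to the pore is shown by it. For coding length and log2 change, rho was -0.01 over the 46 member rows and 0.29 over all tested genes.

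**Figure D4:**
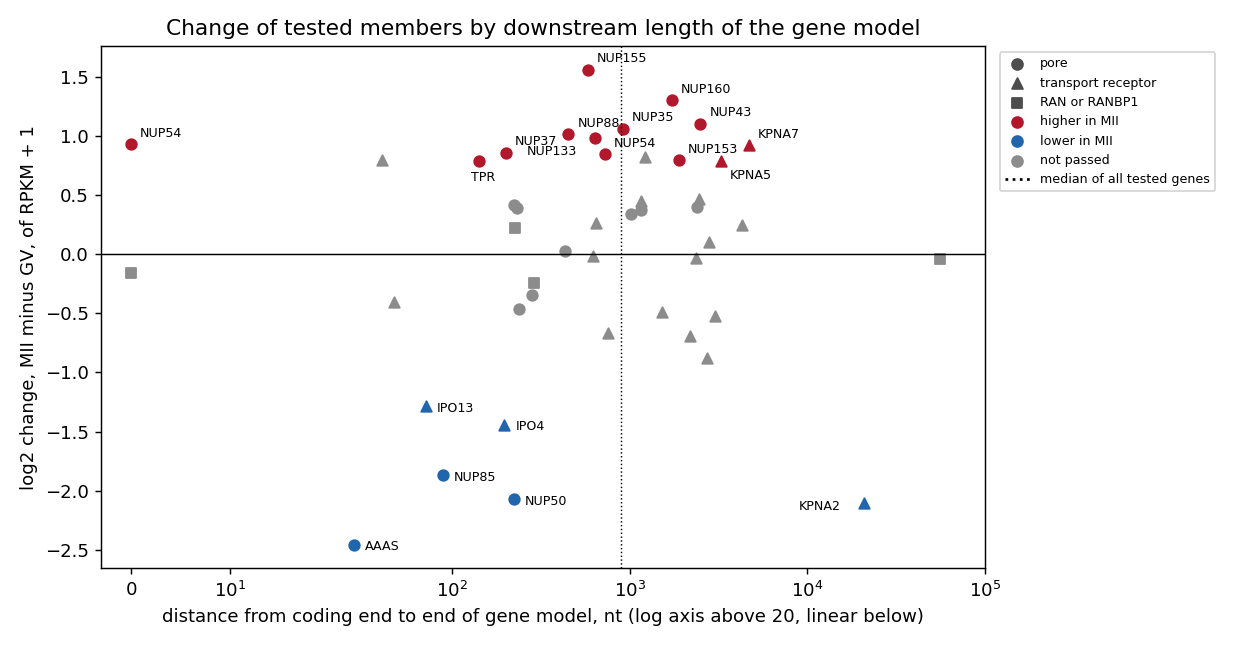
Each point is 1 of 46 tested rows with an annotation, by the distance in nt from coding end to gene model end (horizontal axis, logarithmic above 20) and the log2 change of RPKM + 1, MII minus GV (vertical axis). The dotted line marks 896 nt, the median distance of all tested genes; the falls lie left of it, at 28 to 222 nt, except KPNA2 at 20830 nt.

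Pore and transport genes outside the naming rule were read from lists written with earlier results of these data known. Among 16 tested genes of pore, RAN cycle and other receptors, 4 rose and 5 fell, or 25% and 31.2%, where 13.4% of all tested genes rose and 26.9% fell. The median log2 change of the list was -0.24, beside -0.165 for all tested genes. The rises include AHCTF1, which seeds pore assembly on chromatin, at 15.92 ± 2.81 RPKM in MII and 6.045 ± 1.13 RPKM in GV, and XPOT, the tRNA exporter, at 33.44 ± 5.98 RPKM in MII and 11.9 ± 1.95 RPKM in GV (SD, n = 3; limma adjusted p = 0.00668 and 0.00245). NUPL1, a channel nucleoporin, and GLE1, an mRNA export factor of the filaments, rose by log2 changes of 0.94 and 0.81. SNUPN, the snRNP import adaptor, fell to 5.43 ± 3.12 RPKM in MII, against 55.28 ± 8.53 RPKM in GV, and RANGRF, a RAN-binding factor, to 9.432 ± 3.46 RPKM in MII, against 86.64 ± 8.48 RPKM in GV (adjusted p = 0.000213 and 7.49e-05). C11orf73, the import carrier of HSP70 proteins, and the protease SENP1 also fell (log2 changes -1.40 and -0.75).

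For the lists that follow, 13.4% of all tested genes rose and 26.9% fell, with a median log2 change of -0.165. Of 18 tested mRNA export genes, 4 rose and 7 fell, or 22.2% and 38.9% (median log2 change -0.44). NXF1, the main mRNA export receptor, averaged 8.283 ± 6.32 RPKM in MII and 46.88 ± 13.7 RPKM in GV (SD, n = 3; limma adjusted p = 0.00403), whereas NXT2, a cofactor of that receptor, averaged 44.79 ± 7.88 RPKM in MII and 18.61 ± 7.12 RPKM in GV (adjusted p = 0.0108). Of 15 tested lamina and envelope genes, 3 rose and 2 fell, or 20% and 13.3% (median 0.50). TMPO, a lamina-associated membrane protein, CNEP1R1 and TOR1AIP1 rose (log2 changes 1.17, 1.37 and 1.43), and SYNE1, a large linker protein of the outer membrane, and TOR1A fell (-2.72 and -1.15). Of 10 tested spindle factors that bind importins or act with them, 4 rose, or 40%, and none fell (median 0.61): DLGAP5, BUB1B, ANLN and HMMR, each with a log2 change between 0.94 and 1.04. TPX2, a spindle factor held by importin alpha, averaged 556.4 ± 139 RPKM in MII and 333.3 ± 114 RPKM in GV (SD, n = 3) and did not pass (limma adjusted p = 0.0692).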

How the data were processed

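The authors deposited RPKM for 20707 Ensembl genes with human ortholog symbols, per the file headers, and an annotation of gene, transcript and coding coordinates. In the deposited annotation the start and end columns are other values, coordinates counted from 1. The submitters' processing notes name DESeq without a role; the sources used here give no aligner, counting tool or genome build. RPKM is not a count, so no count model was run. Stages were compared with limma 3.58.1 in R 4.3.3 (lmFit, eBayes with trend) after log2(RPKM + 1), for genes averaging 1 RPKM or more, with 3 libraries a stage and Benjamini-Hochberg adjustment over all 8671 tested genes at 0.05. On this scale the change of a low gene is understated, and every change is relative to a library's mapped reads. The fit was run on simulated data, drawn independently for each gene from a normal distribution. Effects shared within a library were left out of that simulation, so it cannot show how well the p-values hold for these libraries. Depth was found as the number of reads that made low values of coding-only models whole within 0.1 of a read (89.1% to 95% of values), which covers counting error only; amplified reads are not independent molecules. Minimum reads per gene use the coding length. Whether a library ending in c repeats another oocyte is not stated, so n counts libraries. The members and lists were chosen with earlier results of these data known. Named members are the importin alphas, KPNB1, the RAN genes, XPO1, CSE1L and 1 or more fixed symbols of each pore module, the 10 largest rises and falls past the threshold without overlap, the other members past it, and the most abundant of each role; a few others were named after their values were seen. Pseudocount, filter, scaling, variance model, weights, added terms and left-out libraries were varied in 18 fits. Sequences were not used here. The values of 1 gene of the wider transport list are not reported here.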

Additional observations from a re-analysis of the deposited data

How the results depend on the processing

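Of the 19 member rows that passed, 9 kept the call under every alternative run for them (NUP43, NUP85, AAAS, NUP88, NUP35, NUP155, NUP50, KPNA2 and IPO4), 10 lost it under at least 1, and none changed direction. The 13 rises and 6 falls became 20 and 11 with library weights, and the falls 3 at a mean of 5 RPKM or more, where fewer rows were tested. Without GV14c and MII15c, 4 members rose, all of them pore rows, no receptor rose, and 352 genes of all tested rose and 1280 fell, with fewer libraries. Leaving out 1 library gave 7 (without GV15 or MII15c) to 13 member rises, 7 to 10 pore rises, 0 to 3 receptor rises, 2 to 5 receptor falls and 585 (without MII15c) to 1338 (without MII15) rises over all genes. Receptor rises numbered 0 without a filter, 4 with quantile normalization, 5 with library weights and 4 with the replicate block; receptor falls numbered 7 with weights and 1 at 5 RPKM or more. Rises over all genes were 2133 with quantile normalization and 2262 with weights. Falls over all genes went from 2329 to 3220 with weights.

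The pore median of 0.42 was 0.60 with a pseudocount of 0.1 and with TPM scaling, 0.80 at 5 RPKM or more, 0.68 with median-ratio scaling, 0.91 with quantile normalization, 0.74 with weights, 0.63 with the letter c as a term, 0.74 with the replicate block, and 0.37 to 0.72 when 1 library was left out. The receptor median was 0.29 at 5 RPKM or more and 0.29 with quantile normalization. Over all members the median of 0.25 was 0.58 with quantile normalization, 0.05 with the letter c as a term, and 0.02 (without MII14c) to 0.43 (without MII15) when 1 library was left out. For all tested genes it was 0.051 with median-ratio scaling and 0.22 with quantile normalization. The cause of these shifts was not tested.

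Numbers 14 and 15 occur in both stages, but nothing states that they pair libraries. With the number as a replicate block, 14 members rose and 6 fell, beside 1141 rises and 2134 falls over all tested genes. In that fit NUP54 on chromosome 6 lost its call, and IPO11 and XPO6 gained theirs. Under library weights alone, IPO9, KPNA6, NUP214, NUP98, TNPO2, 1 RAN row and 1 RANBP1 row also passed. At 20.23 to 32.55 M reads per library, low members rest on few reads: the 0.013 RPKM of IPO4 in MII15 stands for at least 1 read, and IPO9, at 0.429 to 1.847 RPKM, for at least 38 to 147.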
